A study of Mus musculus with 12 samples.

Results

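Gene expression of mouse embryonic stem cells (ESC) that lack Bmpr1a, a receptor for bone morphogenetic proteins (BMP), was set against that of wild-type (WT) ESC when each line grew without the other. The 6 arrays of this comparison, 3 of Bmpr1a-/- Separate and 3 of WT Separate, were taken by their labels from the 12 arrays of the series. The Bmpr1a-/- cells carried green fluorescent protein (GFP) and the WT cells did not, and both were kept for 3 days in N2B27, a serum-free medium. The other 6 arrays, 3 of Bmpr1a-/- Mix and 3 of WT Mix, held the same lines after co-culture and sorting on GFP. They entered the fit for the spread of each gene and gave the same genotype difference in other arrays. Genotype, cell line and GFP mark went together on every array and cannot be told apart. The file headers name the Bmpr1a-/- cells C1 and the WT cells 3.5, with no account of these names, and number the replicates exp1, exp2 and exp3 in all 4 groups. The sources used here do not give the sex of either line, whether cells grown alone were sorted, or whether the replicates were separate cultures. The p-values therefore measure the spread between these arrays, which may be technical.

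BMP ligands act through receptors such as Bmpr1a on Smad1 and Smad5, which induce the Id genes, small inhibitors of neural and other differentiation factors. Nodal, a related ligand of the early embryo, uses other receptors with the co-receptor Tdgf1 (Cripto), acts through Smad2 and Smad3, and is held back by its own targets Lefty1 and Lefty2. ESC move from a naive state like the epiblast before implantation, marked by Zfp42 and Esrrb, to a primed state like the epiblast after it, and FGF and ERK signalling drives that step.

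Signal below is the authors' normalized expression (RMA) on a linear scale, and a difference is a log2 value, Bmpr1a-/- minus WT, from limma. A gene passed at a Benjamini-Hochberg adjusted p under 0.05 over the 17621 genes tested. In cells grown alone 870 genes were higher (4.94%) and 1111 were lower (6.3%) in Bmpr1a-/- ESC, together 11.2% of the genes tested. The median size of these differences was 0.45, and 74 genes (0.42%) were at least 2-fold higher and 17 (0.0965%) at least 2-fold lower. The 3 Bmpr1a-/- and 3 WT values did not overlap in 1947 of the 1981 genes that passed and in 24.5% of all genes tested. The number that passed was 1170 when only these 6 arrays were fitted, 1083 without Bmpr1a-/- replicate 2 and 1106 without WT replicate 2. With the experiment number as a block it was 2854, and values with that block are given below where they change a call or move a count by a factor above 1.5. For the gene lists below, the shares of all genes, 4.94% higher and 6.3% lower, are the background.

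Several defining markers of ESC were high in both groups, and some markers of other cell types had signal too. Pou5f1, Sox2, Sall4 and Utf1 each lay above the 93rd percentile of probe sets, and the summed signal of 8 ESC markers was 10787 to 11625 in Bmpr1a-/- and 6218 to 7305 in WT arrays. Of these 8, 4 were higher and 1 was lower in Bmpr1a-/- cells. The 8 fibroblast markers, which would show feeder cells, summed to 456.8 to 582.9 in Bmpr1a-/- and 717.7 to 801.3 in WT arrays, with Lum and Postn below the signal filter of 25.37. Markers of extraembryonic endoderm summed to 281.0 to 303.8 in Bmpr1a-/- and 308.3 to 356.5 in WT arrays. The 6 neural markers summed to 631.0 to 635.3 in Bmpr1a-/- and 651.4 to 865.2 in WT arrays, mostly from Tubb3, a tubulin of neurons and other cells, at 358.3 in Bmpr1a-/- and 456.7 in WT cells. Array medians of signal lay between 51.57 and 54.33 over the series, and pairs of arrays correlated at 0.9799 to 0.9981 across probe sets.

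Bmpr1a (probe set 10418927, chromosome 14) gave a signal of 414.6, 462.1 and 424.5 in the Bmpr1a-/- arrays, against 525.1, 587.8 and 534.5 in the WT arrays. All 3 Bmpr1a-/- values lay below all WT values, but they were not at the floor of the array. The difference was -0.34 (SE 0.07, adjusted p = 0.0091). The sources used here do not say which exons the deletion took or which the probe set covers, so a remaining signal checks the genotype labels only in part.

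Most BMP pathway genes did not pass. Of 10 measured receptors and Smads, 2 fell (where 6.3% of all genes fell), Bmpr1a and Bmpr1b, a second type I receptor whose signal was 31.4 ± 2.2 in Bmpr1a-/- and 37.6 ± 1.9 in WT cells (SD, n = 3 each). Bmpr1b differed by -0.26 (adjusted p = 0.039) and lost its call with only the 6 arrays and without Bmpr1a-/- replicate 2 or 3 or WT replicate 2 or 3 (adjusted p = 0.11 to 0.14). The type II receptor Bmpr2 (0.16) and the signal carriers Smad1 (0.01) and Smad5 (-0.13) did not pass.

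The Id genes, the most direct BMP targets in the list, did not pass, though Id1 and Id3 passed in 1 other setting each. Id1, on chromosome 2, had a signal of 75.1, 79.7 and 75.4 in Bmpr1a-/- arrays and 73.3, 95.6 and 105.6 in WT arrays. Id3, on chromosome 4, had 80.7, 65.9 and 58.1 in Bmpr1a-/- arrays and 86.1, 96.2 and 76.5 in WT arrays. The groups overlapped for both genes, with differences of -0.24 (SE 0.11, adjusted p = 0.21) and -0.34 (SE 0.18, adjusted p = 0.26). Without WT replicate 1, the lowest WT array, Id1 stood at -0.39 (adjusted p = 0.012), and with the replicate block Id3 passed at -0.34 (adjusted p = 0.042). Id2 (0.25, adjusted p = 0.48) and Id4 (-0.09, adjusted p = 0.60) did not pass either. Smad6, an inhibitor that BMP induces, stood at 0.08 (adjusted p = 0.70).

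Of 26 measured BMP targets, 5 rose and none fell (4.94% and 6.3% of all genes; medians 0.02 in the list and -0.02 over all genes). Without Bmpr1a-/- replicate 2 or without WT replicate 2, 3 rose, and 1 fell without WT replicate 1 (Id1) or with the replicate block (Id3). The 5 hold regulators that other pathways also control: Smad7, which blocks receptor signalling by both BMP and Nodal, the ERK phosphatase gene Dusp9 (1.27, SE 0.11, X chromosome), the FGF inhibitor gene Spry2, the germ cell regulator Prdm1 (0.48, SE 0.08) and Klf2. Spry2 (0.61, adjusted p = 0.020) lost its call without Bmpr1a-/- replicate 2 or WT replicate 1 or 2 (adjusted p = 0.058 to 0.069). Of 25 ligands and antagonists, 1 rose, Fst, and 3 fell, among them the follistatin-like gene Fstl1 (-0.92, SE 0.13) and the BMP co-receptor gene Rgma (-0.86, SE 0.17), and 2 rose without WT replicate 3 or with the replicate block. Bmp4 (0.10, adjusted p = 0.55) did not pass.

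The promoter of Id2, shown because the Id genes are the classic readout of BMP, held 1 copy of GGCGCC, the GC-rich motif bound by BMP Smads, in capitals (RefSeq, GRCm38.p6, minus strand, chr12:25096043-25096342, 250 bases before to 50 after the start). The motif, which reads the same on both strands, occurred in 11.9% of 32851 promoters of that length.
Id2: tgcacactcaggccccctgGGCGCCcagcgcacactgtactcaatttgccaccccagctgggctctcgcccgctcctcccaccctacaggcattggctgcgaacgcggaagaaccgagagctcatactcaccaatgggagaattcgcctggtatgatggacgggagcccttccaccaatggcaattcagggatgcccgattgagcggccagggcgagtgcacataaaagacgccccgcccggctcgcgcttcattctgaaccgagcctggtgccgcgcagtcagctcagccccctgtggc

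Many genes of the Nodal pathway were higher. Of 25 measured members, 10 rose and none fell, with a median of 0.22, where 4.94% of all genes rose. They included the ligand Nodal, its co-receptor Tdgf1, the inhibitors Lefty1, Lefty2, Smad7 and Fst, the Smad repressors Pmepa1 and Skil and the processing protease Pcsk6. The receptors Acvr1b, Acvr2a and Acvr2b and the signal carriers Smad2, Smad3 and Foxh1 did not pass.

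Tdgf1 (probe set 10597268, chromosome 9) had a signal of 1493.4, 1293.7 and 1438.8 in Bmpr1a-/- arrays, against 201.4, 77.4 and 89.7 in WT arrays. The groups were far apart, and WT replicate 1 stood above the other WT arrays. The difference was 3.65 (SE 0.37, adjusted p = 0.00013), a 12.6-fold higher level. Nodal (probe set 10363481, chromosome 10) had 409.7, 375.1 and 271.7 in Bmpr1a-/- arrays, against 63.3, 56.8 and 64.4 in WT arrays. WT values were close together and the lowest Bmpr1a-/- value was several times the highest WT value, with a difference of 2.50 (SE 0.18, adjusted p = 1.8e-05).

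The feedback inhibitors of Nodal were higher as well. Lefty1, on chromosome 1, had a signal of 270.0, 158.0 and 148.4 in Bmpr1a-/- arrays, against 39.5, 42.3 and 46.0 in WT arrays (difference 2.12, SE 0.25, adjusted p = 0.00037). Its neighbour Lefty2 had 100.9, 75.7 and 82.3 in Bmpr1a-/- arrays, against 30.4, 25.7 and 29.1 in WT arrays (1.60, SE 0.14, adjusted p = 5.7e-05). The probe sets of such close paralogs may share signal, so the pair is not fully independent. Smad7, on chromosome 18, had 183.4, 242.7 and 187.9 in Bmpr1a-/- arrays, against 49.8, 54.5 and 57.5 in WT arrays (1.91, SE 0.11, adjusted p = 1.6e-06). In all 3 genes every Bmpr1a-/- array lay above every WT array, and within Bmpr1a-/- cells Lefty1 was highest in replicate 1 and Smad7 in replicate 2.

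Fst, which encodes follistatin, a secreted protein that binds activin and some BMPs, had 516.8, 893.0 and 391.9 in Bmpr1a-/- arrays, against 73.7, 98.8 and 97.1 in WT arrays. Its Bmpr1a-/- values varied more than those of the genes above but all exceeded the WT values (2.67, SE 0.23, adjusted p = 4.6e-05). Skil (0.89, SE 0.07, adjusted p = 4.1e-05) and Pmepa1 (0.99, SE 0.16, adjusted p = 0.0020), both induced by Smad2 and Smad3 and acting to restrain them, were chosen after their values were seen.

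Promoters of Tdgf1 and Nodal are shown because they belong to the ligand and its co-receptor, both among the 15 largest rises (RefSeq, GRCm38.p6). The short Smad motif CAGAC, searched on both strands and marked in capitals, occurred 1 time in that of Tdgf1 (minus strand, chr9:110946109-110946408) and 0 times in that of Nodal (plus strand, chr10:61417722-61418021). It was present in 49.6% of 32851 promoters.
Tdgf1: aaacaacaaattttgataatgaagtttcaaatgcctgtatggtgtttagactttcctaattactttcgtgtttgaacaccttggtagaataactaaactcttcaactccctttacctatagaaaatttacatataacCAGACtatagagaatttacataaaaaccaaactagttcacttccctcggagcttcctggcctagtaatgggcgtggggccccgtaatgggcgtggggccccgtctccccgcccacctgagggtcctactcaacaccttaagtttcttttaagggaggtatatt
Nodal: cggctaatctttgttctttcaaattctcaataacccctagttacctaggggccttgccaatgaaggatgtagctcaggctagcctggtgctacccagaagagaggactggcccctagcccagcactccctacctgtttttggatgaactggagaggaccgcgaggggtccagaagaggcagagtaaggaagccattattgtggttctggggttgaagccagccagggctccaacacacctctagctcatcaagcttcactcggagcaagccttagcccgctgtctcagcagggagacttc

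**Figure D1:**
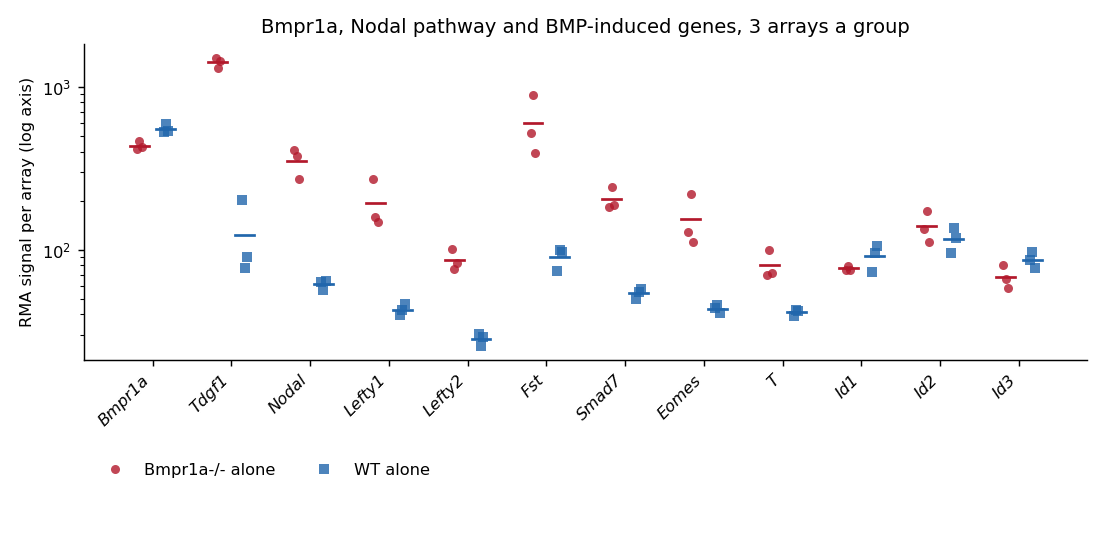
RMA signal (log axis) of Bmpr1a, 8 genes of Nodal signalling and the primitive streak, and 3 Id genes in cells grown alone: red circles are the 3 Bmpr1a-/- arrays, blue squares the 3 WT arrays and bars their means. The groups stand apart for Tdgf1 through T, with Nodal at 271.7 to 409.7 in Bmpr1a-/- and 56.8 to 64.4 in WT arrays, and overlap for Id1, Id2 and Id3.

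Genes of the naive state formed the list with the largest share of rises. Of 34 measured members, 22 rose (64.7%) and none fell, with a median of 0.66. Without WT replicate 2, 14 rose, and 2 fell without Bmpr1a-/- replicate 1 or with the replicate block. Dppa5a, which encodes an RNA-binding protein of naive ESC, had a signal of 2750.3, 1952.7 and 2129.7 in Bmpr1a-/- arrays, against 729.0, 363.5 and 310.2 in WT arrays. The difference was 2.37 (SE 0.35, adjusted p = 0.0012). Zfp42 (Rex1), a widely used naive marker, had 202.5, 209.0 and 233.7 in Bmpr1a-/- arrays, against 122.5, 52.9 and 67.4 in WT arrays. The difference was 1.5 (SE 0.27, adjusted p = 0.0042). Esrrb, a nuclear receptor of the naive network, had 126.3, 114.4 and 133.2 in Bmpr1a-/- arrays, against 72.4, 51.4 and 52.0 in WT arrays (1.11, SE 0.15, adjusted p = 0.00074). In each of the 3 genes the groups did not overlap and WT replicate 1 was the WT array nearest to the Bmpr1a-/- arrays.

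Further naive genes that rose were Fbxo15 (1.30, SE 0.27, adjusted p = 0.0086), Nr0b1 (1.22, SE 0.23, X chromosome) and the growth factor gene Fgf4 (0.82, SE 0.16). Tdh, the threonine dehydrogenase on which mouse ESC depend (1.21, SE 0.20), and the transcription factor gene Tfcp2l1 (0.93, SE 0.12) were chosen after their values were seen. Klf4, also of this network, had a signal of 65.5 ± 6.7 in Bmpr1a-/- and 68.4 ± 11.1 in WT cells (SD, n = 3 each) and did not pass (-0.06, adjusted p = 0.87).

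The Zfp42 promoter (RefSeq, GRCm38.p6, minus strand, chr8:43306960-43307259) is shown because this gene is the usual reporter of the naive state. It held the octamer ATGCAAAT, bound by POU factors such as Oct4, 1 time and on the opposite strand, so that its capitals read as the reverse complement. The octamer, counted on both strands, occurred in 1.74% of 32851 promoters.
Zfp42: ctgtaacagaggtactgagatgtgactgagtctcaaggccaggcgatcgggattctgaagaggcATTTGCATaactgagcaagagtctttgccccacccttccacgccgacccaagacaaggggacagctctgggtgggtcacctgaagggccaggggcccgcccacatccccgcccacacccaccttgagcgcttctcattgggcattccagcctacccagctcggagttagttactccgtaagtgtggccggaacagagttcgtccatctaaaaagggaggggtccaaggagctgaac

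Of 16 measured genes of core pluripotency, 8 rose and 1 fell (median 0.36). Pou5f1, which encodes Oct4, had a signal of 2796.0, 3310.8 and 2876.5 in Bmpr1a-/- arrays, against 1963.8, 1679.2 and 1698.2 in WT arrays. The groups did not overlap (0.75, SE 0.08, adjusted p = 0.00025). Sox2, its partner factor, had 656.2, 820.8 and 790.8 in Bmpr1a-/- arrays and 517.1, 874.9 and 798.2 in WT arrays and did not pass (0.08, SE 0.18, adjusted p = 0.86). The gene that fell was Lin28a (-0.33, adjusted p = 0.048), a call lost without Bmpr1a-/- replicate 2 or 3 or WT replicate 2 or 3 (adjusted p up to 0.19), and it was chosen after its values were seen.

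Of 32 measured genes of the primed epiblast, 12 rose (37.5%), 5 fell (15.6%) and 15 did not pass, with a median of 0.37. The 12 include Nodal and Lefty2 above and Fgf15, an FGF of the epiblast and neural tube, which had a signal of 407.5, 369.9 and 297.1 in Bmpr1a-/- arrays, against 98.8, 139.5 and 152.3 in WT arrays (1.47, SE 0.18, adjusted p = 0.00044). The lower count was 1 when only the 6 arrays were fitted, 2 without Bmpr1a-/- replicate 1, WT replicate 1 or WT replicate 2, and 3 without Bmpr1a-/- replicate 3. The defining primed genes Fgf5 and Otx2 did not pass in the fit of group means. Fgf5 had 521.4, 541.9 and 375.4 in Bmpr1a-/- arrays and 334.5, 387.9 and 349.7 in WT arrays, which overlapped (0.41, adjusted p = 0.11), and it passed with the replicate block (adjusted p = 0.025) and without Bmpr1a-/- replicate 3 (0.58, adjusted p = 0.025). Otx2 had 957.3 ± 116.9 in Bmpr1a-/- and 1006.0 ± 135.4 in WT cells (SD, n = 3 each), a difference of -0.07 (adjusted p = 0.85).

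**Figure D2:**
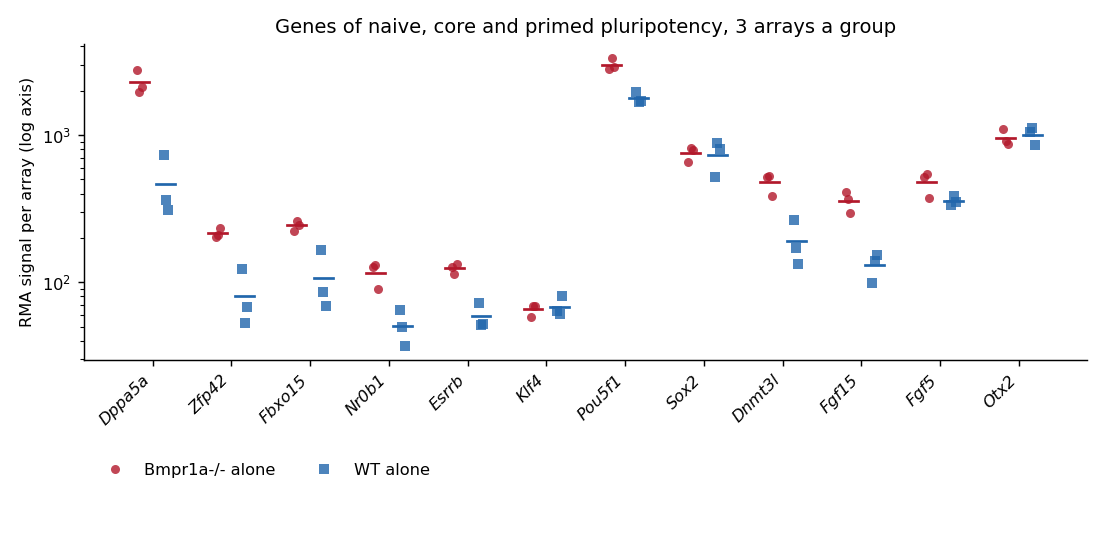
RMA signal (log axis) of 12 genes of naive, core and primed pluripotency in cells grown alone: red circles are the 3 Bmpr1a-/- arrays, blue squares the 3 WT arrays and bars their means. Dppa5a, Zfp42, Esrrb and Pou5f1 stand apart between the groups, while Klf4, Sox2, Fgf5 and Otx2 overlap.

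Of 24 measured FGF and ERK targets, 7 rose (29.2%), 2 fell (8.33%) and 15 did not pass (median 0.23), with 12 higher with the replicate block, 11 higher without Bmpr1a-/- replicate 3 and 1 lower without Bmpr1a-/- replicate 2 or WT replicate 3. The ETS factor gene Etv5 had a signal of 489.5, 663.4 and 544.9 in Bmpr1a-/- arrays, against 349.6, 269.4 and 226.0 in WT arrays (1.02, SE 0.15, adjusted p = 0.0012). Dusp6, the ERK phosphatase that ERK itself induces, had 578.7, 658.7 and 596.8 in Bmpr1a-/- arrays, against 367.2, 363.0 and 445.8 in WT arrays (0.65, SE 0.10, adjusted p = 0.0019). Neither gene overlapped between the groups. Etv1 rose too (0.78, SE 0.13), and Etv4 did not pass (0.40, adjusted p = 0.063) except with the replicate block (adjusted p = 0.029) and without Bmpr1a-/- replicate 3 (0.52, adjusted p = 0.028). Among 17 ligands and receptors, Fgf15 and Fgf4 rose (11.8%) and Fgfr2 (-0.65, SE 0.15) and the FGF carrier gene Fgfbp1 (-0.87, SE 0.13) fell (11.8%). Fgfr2 lost its call without Bmpr1a-/- replicate 3 (adjusted p = 0.059) or WT replicate 2 (adjusted p = 0.073), and 4 ligands and receptors rose without Bmpr1a-/- replicate 3.

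Among the 15 measured 2-cell embryo genes, 8 rose and none fell (median 0.45). Of the 8, 3 had a WT mean under the signal filter of 25.37 and passed that filter through other arrays, so that they had to differ and the count gives no support beyond the single genes. They include the clustered paralogs Tdpoz3 (2.12), Tdpoz4 (1.08) and Tdpoz5 (1.05), whose probes may share signal, and Tmem92 (1.31, SE 0.11). Tdpoz3 had a signal of 143.1, 94.6 and 93.7 in Bmpr1a-/- arrays, against 26.1, 23.2 and 25.3 in WT arrays, so the WT values lay around the filter, and the log2 differences of Tdpoz3 and Tdpoz4 (WT mean 24.2) measure a level against the background of the array.

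Of 26 germ cell and meiosis genes, 10 rose (38.5%) and 2 fell (7.69%), with a median of 0.36. The count higher was 6 without Bmpr1a-/- replicate 1 and 4 without WT replicate 2, and the count lower was 1 without Bmpr1a-/- replicate 2 or WT replicate 2. The meiotic chromosome gene Hormad1 (0.72, SE 0.13, adjusted p = 0.0037) and Taf7l (0.79, SE 0.13, X chromosome) rose, while Kit, a receptor of germ and blood cells, had 112.5 ± 22.5 in Bmpr1a-/- and 218.5 ± 4.4 in WT cells (SD, n = 3 each) and fell (-0.98, SE 0.14, adjusted p = 0.0010). Of 15 genes of DNA methylation, 5 rose (33.3%) and none fell, and 3 rose without Bmpr1a-/- replicate 2 or without WT replicate 3. Dnmt3l, a cofactor of the methyltransferases that is high in germ cells and naive ESC, had a signal of 520.0, 524.3 and 385.0 in Bmpr1a-/- arrays, against 264.0, 172.0 and 133.9 in WT arrays (1.37, SE 0.27, adjusted p = 0.0067). The enzymes Dnmt3a (0.36, adjusted p = 0.06) and Dnmt3b (-0.16, adjusted p = 0.12) did not pass, except Dnmt3a with the replicate block (adjusted p = 0.0052) and without WT replicate 1 (0.45, adjusted p = 0.035). The median of the methylation list was 0.02, and 8 of its 15 differences were above 0.

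Imprinted genes moved both ways, with 4 of 37 higher (10.8%) and 6 lower (16.2%), where 4.94% and 6.3% of all genes were. H19, a maternally expressed noncoding RNA, had a signal of 1145.4, 1783.0 and 1488.4 in Bmpr1a-/- arrays, against 592.6, 417.6 and 630.9 in WT arrays (1.43, SE 0.27, adjusted p = 0.0049). Nnat, a paternally expressed gene, was at 369.4 ± 48.6 in Bmpr1a-/- and 639.3 ± 106.1 in WT cells (SD, n = 3 each) and fell (-0.79, SE 0.12, adjusted p = 0.0014). The count higher was 2 without Bmpr1a-/- replicate 2 and 7 with the replicate block, and the count lower was 3 without Bmpr1a-/- replicate 2 or WT replicate 1 and 2 without WT replicate 2.

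Most lineage genes did not pass. Of 31 primitive streak genes, 4 rose (12.9%) and none fell: Nodal, the T-box genes Eomes and T and the ligand gene Wnt3. Without WT replicate 3, 7 rose, and without WT replicate 1, 1 fell. Eomes had a signal of 128.6, 219.9 and 111.5 in Bmpr1a-/- arrays, against 43.7, 45.5 and 40.9 in WT arrays (1.76, SE 0.18, adjusted p = 0.00014). T (brachyury) had 69.9, 99.5 and 72.1 in Bmpr1a-/- arrays, against 38.9, 42.6 and 41.7 in WT arrays (0.95, SE 0.15, adjusted p = 0.0021). Both were highest in Bmpr1a-/- replicate 2, the array in which Fst and Smad7 were also highest, and in neither did the groups overlap. The median of the list was 0.05, and its genes Mixl1, Gsc and Mesp1 did not pass.

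Of 42 neural genes, 6 rose (14.3%) and 4 fell (9.52%), where 4.94% and 6.3% of all genes did (median -0.08). The 6 include the neurofilament genes Nefl (1.14, SE 0.14) and Nefm (0.66, SE 0.14) and the adhesion gene Nrcam (1.02, SE 0.13), while Zfp521, a factor that starts neural differentiation of ESC, fell (-0.80, SE 0.17, adjusted p = 0.0096). Sox1, the earliest neural marker, gave 105.0 ± 11.6 in Bmpr1a-/- and 136.2 ± 18.3 in WT cells (-0.37, adjusted p = 0.042). It lost that call without Bmpr1a-/- replicate 2 or 3 or WT replicate 2 or 3 (adjusted p = 0.099 to 0.17), and Pax6 (-0.24, adjusted p = 0.25) did not pass. The count lower was 1 with only the 6 arrays and 2 without Bmpr1a-/- replicate 1 or 3 or WT replicate 2.

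Among 24 trophoblast genes 4 rose (16.7%) and 2 fell (8.33%), with Eomes and Tfap2c (0.73, SE 0.15) the largest rises and the defining genes Cdx2, Elf5 and Hand1 not past the test. The count lower was 0 without WT replicate 2 and 1 without any 1 of WT replicate 1 and the Bmpr1a-/- replicates. The 6 trophoblast markers summed to 314.6 to 350.0 in Bmpr1a-/- and 284.5 to 293.2 in WT arrays. Of 25 extraembryonic endoderm genes 1 rose, Fst (2 without WT replicate 3), and 5 fell, among them Dab2, an endocytic adaptor (-0.68, SE 0.11), and Sparc, a matrix protein (-0.60, SE 0.09, chromosome 11). Gata4, Gata6 and Sox17 did not pass.

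Of 32 fibroblast and mesenchyme genes 2 rose (6.25%), 4 fell (12.5%) and 26 did not pass (median -0.07), where 4.94% of all genes rose and 6.3% fell. The count lower was 7 with the replicate block and 2 without Bmpr1a-/- replicate 2 or WT replicate 2, and the count higher was 0 with only the 6 arrays and 1 without Bmpr1a-/- replicate 2 or 3 or any 1 of the WT replicates. Thy1, a surface protein of fibroblasts and other cells, had a signal of 141.7, 97.2 and 113.9 in Bmpr1a-/- arrays, against 240.5, 239.9 and 206.6 in WT arrays (-0.98, SE 0.12, adjusted p = 0.00044). Acta2, smooth muscle actin, stood at -0.99 (SE 0.22, adjusted p = 0.012) and lost its call without Bmpr1a-/- replicate 2 (adjusted p = 0.055) or WT replicate 2 (adjusted p = 0.056). The fibroblast genes Col1a1, Col1a2 and Col3a1 did not pass, and the part of other cells in the differences was not tested.

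Several growth genes and p53 targets rose. Myc, which drives growth and ribosome production, had a signal of 173.7, 262.7 and 168.0 in Bmpr1a-/- arrays, against 77.8, 90.7 and 95.5 in WT arrays. The groups did not overlap and the difference was 1.17 (SE 0.15, adjusted p = 0.00064). Of 46 genes of the Myc family and ribosome production 9 rose (19.6%) and 1 fell (2.17%), with a median of 0.16. Utp20, of the small subunit processome (0.53, SE 0.08), and Srm, spermidine synthase (0.50, SE 0.09), were among the 9. The count higher was 14 with the replicate block, 4 without Bmpr1a-/- replicate 2 and 5 without WT replicate 2. Mycn (0.67, adjusted p = 0.030) lost its call without Bmpr1a-/- replicate 1 or 2 or without any 1 of the WT replicates (adjusted p = 0.051 to 0.14).

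Of 43 targets of the tumour suppressor p53, 18 rose (41.9%) and 3 fell, with a median of 0.19, and 9 rose without Bmpr1a-/- replicate 2. Trp53 itself did not pass (0.10, adjusted p = 0.57). Mdm2, the ubiquitin ligase that limits p53, had a signal of 925.8, 1119.7 and 797.0 in Bmpr1a-/- arrays, against 570.3, 584.1 and 478.0 in WT arrays (0.79, SE 0.12, adjusted p = 0.0019). Cdkn1a, the cell cycle inhibitor p21, had 507.9, 574.6 and 465.2 in Bmpr1a-/- arrays, against 325.8, 378.1 and 355.7 in WT arrays (0.54, SE 0.11, adjusted p = 0.0064). The polo-like kinase gene Plk2 (1.13, SE 0.11) and the nuclear body gene Pml (0.98, SE 0.14) rose most in the list, and the groups did not overlap in any of these 4 genes.

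Of 38 genes of the apoptosis machinery 6 rose (15.8%) and 4 fell (10.5%), where 4.94% and 6.3% of all genes did (median 0.04). Without Bmpr1a-/- replicate 2 the counts were 1 and 2, the count higher was 3 without WT replicate 3, and the count lower was 2 without Bmpr1a-/- replicate 3 or with only the 6 arrays. Casp8, the initiator of the death receptor route, had a signal of 43.3 ± 2.8 in Bmpr1a-/- and 72.2 ± 9.7 in WT cells (SD, n = 3 each) and fell (-0.73, SE 0.11, adjusted p = 0.0014). Apaf1, which forms the apoptosome (0.32, adjusted p = 0.012), and Bax, a pore former of mitochondria (0.37, adjusted p = 0.019), rose and were chosen after their values were seen. Both lost their calls without Bmpr1a-/- replicate 2 (adjusted p = 0.053 and 0.084), and Bax also without WT replicate 3 (adjusted p = 0.063).

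Most lysosomal and nutrient-sensing genes did not pass in cells grown alone. Of 65 lysosome and autophagy genes 4 rose and 6 fell (median -0.04), shares of 6.15% and 9.23% near those of all genes. The count lower was 12 with the replicate block, 1 with only the 6 arrays and without Bmpr1a-/- replicate 2 or WT replicate 2, and 2 without WT replicate 1. The count higher was 2 with only the 6 arrays and without Bmpr1a-/- replicate 1 or WT replicate 2. Tfe3, a transcription factor of lysosome genes encoded on the X chromosome, had a signal of 376.9 ± 55.8 in Bmpr1a-/- and 209.5 ± 17.6 in WT cells (SD, n = 3 each) and rose (0.84, SE 0.11, adjusted p = 0.00067). The mTOR pathway had 3 of 37 measured genes higher (8.11%) and 4 lower (10.8%), where 4.94% and 6.3% of all genes were. Mtor stood at 0.08 (adjusted p = 0.70). Ddit4l, an inhibitor of mTORC1, rose (0.91, SE 0.15, adjusted p = 0.0025). The count higher was 1 without Bmpr1a-/- replicate 2 or WT replicate 3, and the count lower was 1 or 2 with only the 6 arrays and without Bmpr1a-/- replicate 2 or 3 or WT replicate 1 or 2.

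Lists of glycolysis and lipid synthesis held more falls than rises, as did all genes tested (6.3% lower and 4.94% higher). None of 22 glycolysis genes rose and 4 fell (18.2%), 2 of them on chromosome 11, where 26.6% of the genes tested were lower. The count higher was 1 without WT replicate 1 and 2 with the replicate block. The glucose transporter gene Slc2a1 had a signal of 3605.0, 2679.6 and 2366.9 in Bmpr1a-/- arrays, against 4891.1, 5810.5 and 4291.2 in WT arrays (-0.81, SE 0.15, adjusted p = 0.0051). The enolase gene Eno3 (-1.10, SE 0.10) and the aldolase gene Aldoc (-1.23, SE 0.25), both on chromosome 11, and the phosphofructokinase gene Pfkm (-0.67, SE 0.15, chosen after its values were seen) were the others. Of 33 genes of cholesterol and fatty acid synthesis, 1 rose (3.03%), Ebp on the X chromosome (0.70, SE 0.13). In the same list 5 fell (15.2%), 1 of them on chromosome 11, and among them was the desaturase gene Scd1 (-0.50, SE 0.09). The 5 came to 1 without WT replicate 2, 2 with only the 6 arrays and 3 without Bmpr1a-/- replicate 2 or 3. The respiratory chain had 1 of 34 higher, Ndufa1 on the X chromosome (0.71, SE 0.13), and 1 lower, a count of 0 to 3 with 1 of the 6 arrays left out, while 2 were higher without WT replicate 1. With the replicate block 2 were higher and 2 lower.

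**Figure D3:**
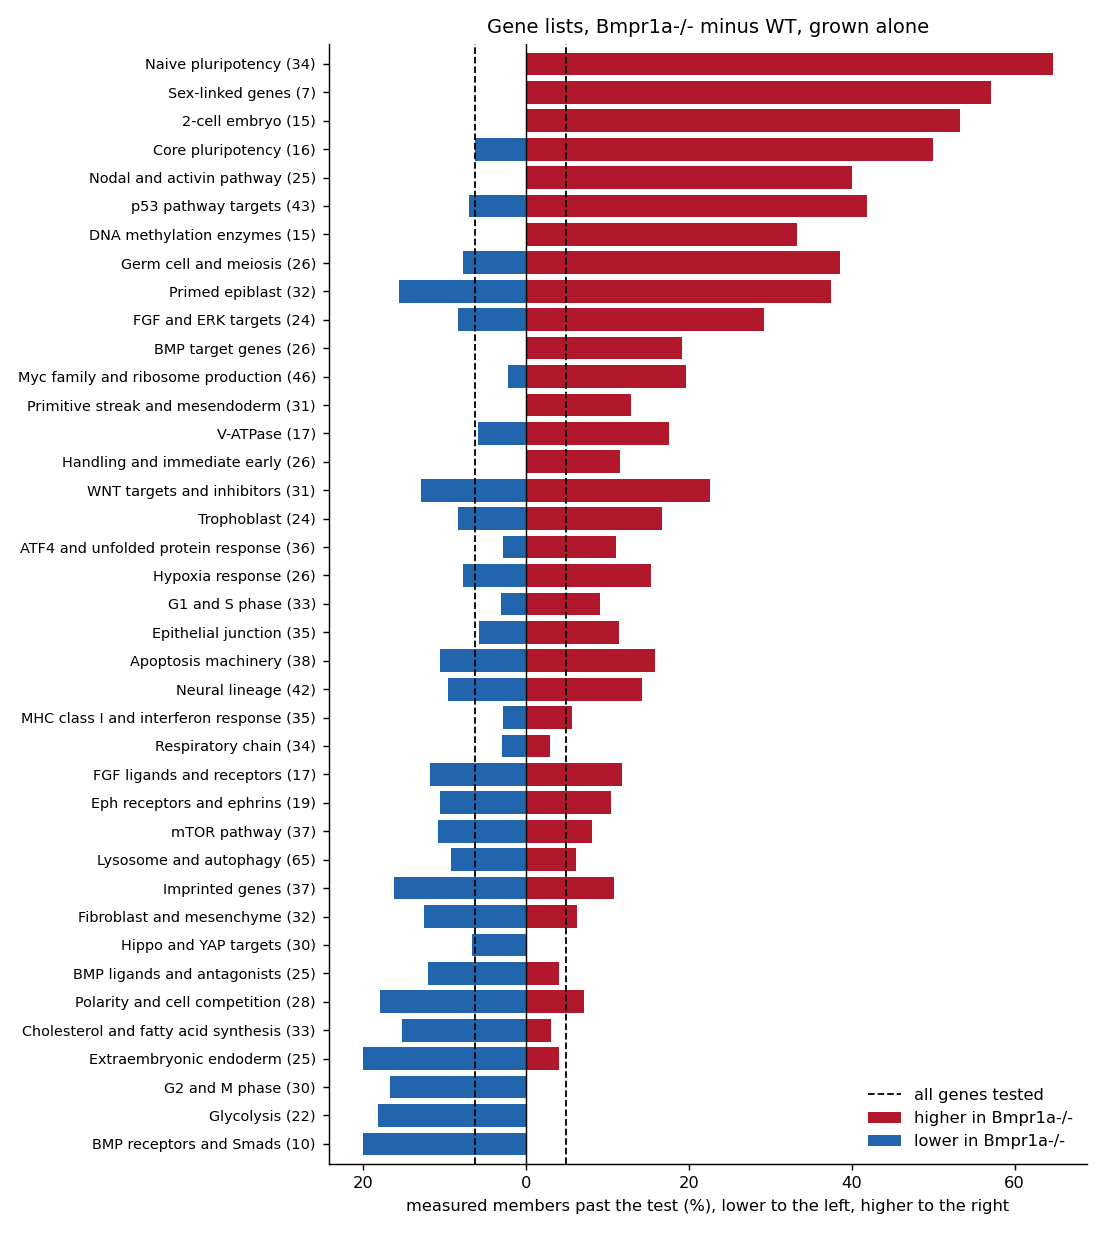
Share of the measured members of 39 gene lists (numbers measured in parentheses) that passed the test in cells grown alone, higher in Bmpr1a-/- to the right (red) and lower to the left (blue), with dashed lines at the shares of all genes tested, 4.94% and 6.3%. Naive pluripotency stands at 64.7% higher and p53 targets at 41.9%, while lists such as lysosome and autophagy lie near the lines.

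On chromosome 11 most differences had the same sign, and parts of chromosomes X and 6 and, to a lesser size, chromosome 19 leaned one way as well. Among genes with a mean signal of at least 100, chromosome 11 held 665, of which 295 were lower and 4 higher, with a median of -0.31 and 92.9% of differences below 0. Over all its 1385 genes tested, 26.6% were lower, against 6.3% of all genes. Cut into 10 bins by gene order, every bin of chromosome 11 had a median between -0.36 and -0.26. The array medians for these genes, on the authors' centred log2 scale, were -0.05, -0.19 and -0.19 in Bmpr1a-/- arrays and 0.20, 0.23 and 0.09 in WT arrays. The Mix arrays gave a median difference of -0.40. The number lower was 195 with only the 6 arrays, 182 without Bmpr1a-/- replicate 2 and 167 without WT replicate 2.

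Chromosome 11 supplied 369 of the 1111 genes that were lower (33.2%). Examples are the receptor gene Gprc5c and the securin gene Pttg1 (-1.16, SE 0.19), the largest fall of the G2 and M phase list. Gprc5c had a signal of 343.4, 230.0 and 244.9 in Bmpr1a-/- arrays, against 690.5, 860.3 and 677.9 in WT arrays (-1.46, SE 0.18, adjusted p = 0.00045). The cell polarity gene Llgl1 (-0.62, SE 0.12) and the metalloproteinase inhibitor gene Timp2 (-1.03, SE 0.10) fell as well. Cct4, a chaperonin subunit and 1 of the 4 brightest genes of the chromosome that passed, fell by 0.54 (adjusted p = 0.019), a call lost with only the 6 arrays (adjusted p = 0.074) or without WT replicate 3 (adjusted p = 0.052). Wnt3, Tmem92 and Pecam1 (0.67, SE 0.13, chosen after its values were seen) lie on the same chromosome and were higher. Among genes not placed on chromosomes 11 or X, 731 were higher and 699 lower. These counts include any that passed among the 1320 genes tested without a known chromosome. The copy number of chromosome 11 in either line was not tested.

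Xist, the noncoding RNA that coats an inactive X chromosome in female cells, gave the largest difference of the named genes. Its signal was 532.9, 745.4 and 762.7 in Bmpr1a-/- arrays, against 29.1, 23.4 and 30.4 in WT arrays, which lay near the signal filter (4.61, SE 0.13, adjusted p = 6.2e-10). The Y chromosome genes Ddx3y, Eif2s3y, Kdm5d and Uty had signals of 20.1 to 25.3 in all 12 arrays. Of 7 measured genes in the list of sex-linked genes, 6 of them on the X chromosome, 4 rose and 3 did not pass. The 4 were Xist, Kdm6a (0.82, SE 0.08), Usp9x (0.66, SE 0.10) and Eif2s3x (0.41, SE 0.07), all on the X chromosome. Over all X genes tested, 21.1% were higher.

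Along the X chromosome the direction changed near its end. Of 213 genes in the first 8 bins with a mean signal of at least 100, 88 were higher and 11 lower, with a median of 0.30. Of 52 genes in the last 2 bins, from Acsl4 on, 3 were higher and 18 lower, with a median of -0.23. The cut between them was chosen after the values were seen, and the medians of the last 2 bins were -0.16 and -0.39. The Mix arrays gave medians of 0.34 and -0.24 for the same sets. The X gene Efhc2 (2.32, SE 0.09) was among the 15 largest rises, and Kctd12b (-1.11, SE 0.14) was among the 15 largest falls.

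A further block lay at the end of chromosome 6. Of 34 genes in its last bin, from Wbp11 to Bicd1, 16 were higher and 1 lower, with a median of 0.28 and 0.19 in the Mix arrays, against a median of 0.01 over its first 9 bins. Its array medians, on the scale used for chromosome 11, were 0.08, 0.16 and 0.12 in Bmpr1a-/- arrays and -0.11, -0.10 and -0.21 in WT arrays. The bin was chosen after the values were seen. Among the 180 bins outside chromosomes 11 and X, this one was the highest, the next highest was 0.11 and the lowest was -0.15, the last bin of chromosome 19. Chromosome 19 had 33 of 273 such genes lower and 7 higher, with 66.3% of differences below 0 and a median of -0.07 (-0.16 in Mix). The sources used here give neither the karyotype nor the strain of the lines.

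**Figure D4:**
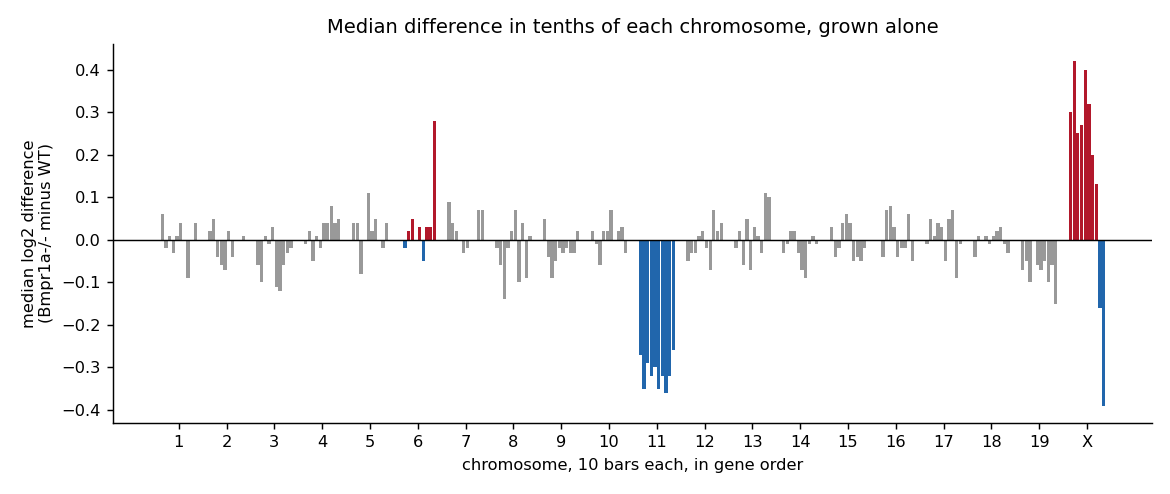
Median log2 difference (Bmpr1a-/- minus WT, grown alone) in 10 bins of each chromosome, cut by gene order, over genes with a mean signal of at least 100; chromosomes 6, 11 and X are coloured. All bins of chromosome 11 lie between -0.36 and -0.26, and the last bin of chromosome 6 (0.28) and the first 8 of X lie above the others.

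Several of the largest differences fell outside these groups. The predicted gene LOC100043292 averaged a signal of 1599.3 ± 393.6 in Bmpr1a-/- and 101.4 ± 68.6 in WT cells (SD, n = 3 each, difference 4.15, SE 0.37, adjusted p = 6.1e-05). Trh, the precursor of thyrotropin-releasing hormone, had 2105.5, 2643.2 and 1407.3 in Bmpr1a-/- arrays, against 339.0, 404.6 and 246.9 in WT arrays (2.62, SE 0.28, adjusted p = 0.00016). Both were clear of the WT arrays in every Bmpr1a-/- array. The vitamin C transporter gene Slc23a1 (1.81, SE 0.20), the small heat shock gene Hspb1 (1.52, SE 0.18) and the ephrin receptor gene Epha2 (1.57, SE 0.13) rose as well.

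The largest fall was in Actc1, cardiac actin, with a signal of 177.3, 83.5 and 147.9 in Bmpr1a-/- arrays, against 334.4, 416.2 and 581.0 in WT arrays (-1.74, SE 0.28, adjusted p = 0.0020). Sfrp1, a secreted WNT inhibitor, had 89.5, 74.1 and 75.7 in Bmpr1a-/- arrays, against 143.2, 313.7 and 253.3 in WT arrays (-1.50, SE 0.23, adjusted p = 0.0014). WT replicate 1 was the lowest WT array for both genes and still above all Bmpr1a-/- arrays. Greb1l (-1.63, SE 0.33, adjusted p = 0.0073), the lipoprotein lipase gene Lpl (-1.20, SE 0.17) and the matrix gene Spon1 (-1.10, SE 0.10) also fell. The zinc transporter gene Slc39a8 (-1.22, adjusted p = 0.013) lost its call without Bmpr1a-/- replicate 2 (adjusted p = 0.065).

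The Mix arrays hold the same lines, and their group means share no array with those of the cells grown alone. The Mix differences had the same sign for 1825 of the 1981 genes that passed alone (92.1%). The share of same signs over all genes tested is not given here as a background. The spread of each gene was fitted over the Separate and Mix arrays together. A gene with a small spread could therefore pass in both, and the overlap of calls does not come from independent tests. Of the 1981, 1141 (57.6%) also passed in the same direction in Mix, where 2905 genes (16.5%) passed in all, 6.36% higher and 10.1% lower, and 15 passed in the opposite direction. Of the genes that passed in Mix, 39.3% had passed in the same direction alone. The naive list had 26 of 34 higher and 1 lower in Mix (median 0.83), and chromosome 11 and Xist (4.69) kept their directions. The Nodal list had 6 of 25 higher and none lower in Mix, and p53 targets had 13 of 43 higher and 1 lower. FGF and ERK targets had none of 24 higher and 10 lower in Mix, and the Myc and ribosome list had 1 of 46 higher and 9 lower. Of the lysosome and autophagy genes, 31 of 65 were higher and 1 was lower in Mix, where 4 were higher and 6 lower alone. Differences of whole lists between the cultures were not tested. Bmpr1a differed by -0.50 (SE 0.07, adjusted p = 0.00044) in Mix, and its 2 differences did not differ past the test (-0.16, adjusted p = 0.63).

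The difference between the genotypes was itself different in Mix for 121 genes (0.687% of those tested, 0.301% with a more positive and 0.386% with a more negative difference in Mix), of which 55 had passed in cells grown alone. Of the 55, 38 were higher in Bmpr1a-/- cells alone and less so, or lower, in Mix. The 55 were chosen in part by the difference alone, which also enters the change, so that choice favours differences that shrink in Mix. Over all 121 genes the change was negative in 68 and positive in 53. With the replicate block 387 genes passed this test. Fst differed by 2.67 alone and 0.14 in Mix, a change of -2.53 (SE 0.32, adjusted p = 0.0082). Eomes stood at 1.76 alone and 0.07 in Mix (-1.69, SE 0.26, adjusted p = 0.014), and Smad7 at 1.91 alone and 0.68 in Mix (-1.24, SE 0.15, adjusted p = 0.0082). Nodal remained higher in both, 2.50 alone and 1.10 in Mix (-1.40, SE 0.26, adjusted p = 0.032). Without WT Mix replicate 2 the call of Eomes ended (adjusted p = 0.055), and that of Nodal ended in 11 of 22 settings (adjusted p up to 0.11). Dppa5a (0.69, adjusted p = 0.71), Zfp42 (0.59, adjusted p = 0.66) and Tdgf1 (-1.08, adjusted p = 0.48) did not pass this test.

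**Figure D5:**
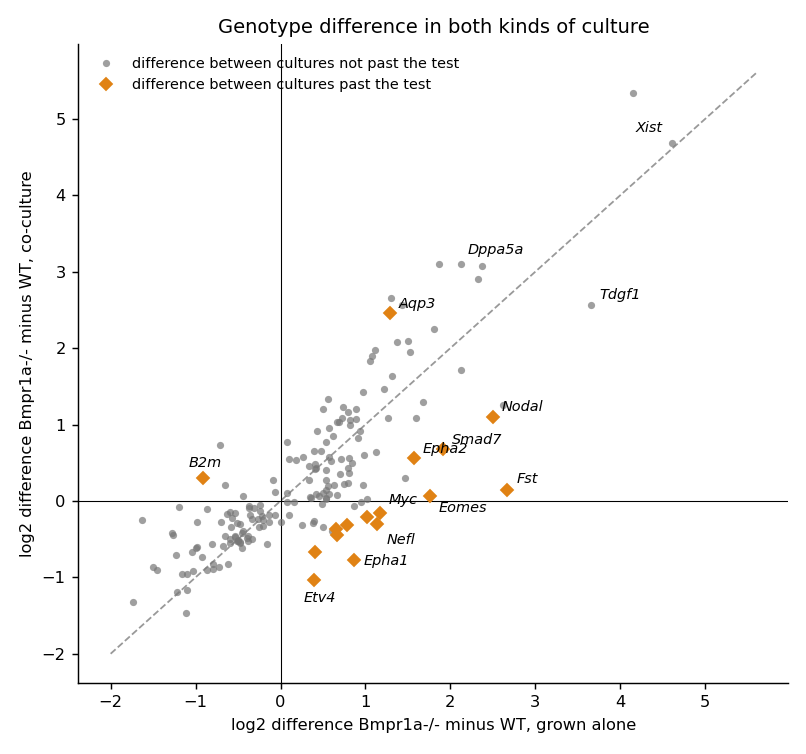
Log2 difference Bmpr1a-/- minus WT of the 183 genes named by the rule, in cells grown alone (x axis) and after co-culture (y axis); the dashed line marks equal differences and orange diamonds the genes whose differences changed between the cultures past the test. Fst, Eomes and Myc lie near 0 on the y axis, while Xist lies near the line.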

How the data were processed

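Values were the authors' deposited series table, log2 RMA values (Affymetrix Expression Console 1.2, per the submitters' processing notes) of Affymetrix mouse gene arrays, quantile normalized, with each probe set set to a baseline at the sample median, per the file headers. The headers name 1 further array that the authors left out. Because centred log2 values carry no level, signal came from the deposited linear sheet, whose intensity values equalled the same RMA values uncentred (largest spread within a probe set 2.2e-06). The fit design had assumed a level in the series table.

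Of 28815 probe sets, 22700 had 1 symbol, 2478 several and 3637 none. Symbols and positions came from a RefSeq table (GRCm38.p6): 16822 were current, 3900 were updated and 1978 were kept. Probe sets under the 20th percentile of mean signal (25.37) were left out and the brightest stood for a gene. limma 3.58.1 (R 4.3.3) fitted 4 group means to 12 arrays (8 residual degrees of freedom). On data simulated for the Separate contrast over 17621 genes, 70 of 100 changes of 0.5 and 100 of 100 changes of 1 on the log2 scale were recovered, with 6 false calls. The simulated noise was independent between genes and arrays, and no other genes were changed. These counts therefore do not give the recovery or false calls in the real arrays, where whole chromosomes shifted and same-numbered arrays correlated. The number of arrays limits precision.

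Members, lists and tests were chosen with earlier results of these data known. Named were Bmpr1a, the 15 largest rises and 15 largest falls with groups apart, 4 members per list with the largest difference, a fixed set of regulators, and the 4 brightest passing genes of chromosomes with a median of at least 0.1 in size. Loci without a proper name (such as Gm numbers, Rik, olfactory, vomeronasal, ribosomal protein and small RNA genes) were left out unless in a list. Of the 183 named genes, 127 had a promoter entry in RefSeq. Pcsk6 and Klf2, and list members given without a value, were named as part of a count. Alternatives covered the arrays fitted, the signal filter, normalization, the source of values, array weights, the variance model, the probe set for a gene, the replicate block and each array left out. 1 was added after the data were seen: shifting arrays to the same median over genes outside chromosomes 11, X and Y. The file headers number replicates exp1 to exp3 in all 4 groups, so that same-numbered arrays were taken as pairs. Their deviations from the group means correlated at 0.64, 0.38 and 0.42 in Mix and at 0.06, 0.05 and 0.34 in Separate. Figures used matplotlib 3.10.9.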

Additional observations from a re-analysis of the deposited data

Results flagged for a closer look

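The genes below were singled out because the genotype difference itself differed between cells grown alone and co-cultured cells in the all-gene fit (adjusted p under 0.05). Values are log2, Bmpr1a-/- minus WT, and the change is the Mix difference minus the difference alone. Fst changed by -2.53, Eomes by -1.69, Nodal by -1.40 and Smad7 by -1.24, as given above. Skil, a repressor of Smad signalling, stood at 0.89 alone and 0.30 in Mix, a change of -0.59 (adjusted p = 0.026). Ppp4r4, a regulatory subunit of a protein phosphatase chosen after its values were seen, was at 1.52 alone and -0.11 in Mix, a change of -1.63 (adjusted p = 0.0088).

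Among the 24 FGF and ERK targets, 7 passed with a negative change, 17 did not pass and none had a positive one (0.386% and 0.301% of all genes). Of the 7, Myc was at 1.17 alone and -0.16 in Mix (change -1.33, adjusted p = 0.020), Etv1 at 0.78 alone and -0.31 in Mix (-1.09, adjusted p = 0.024), Dusp6 at 0.65 alone and -0.37 in Mix (-1.01, adjusted p = 0.0088), Etv4 at 0.40 alone and -1.04 in Mix (-1.44, adjusted p = 0.0082) and Fgf5 at 0.41 alone and -0.67 in Mix (-1.08, adjusted p = 0.040). In the neural list 3 of 42 passed (median change -0.02) and in the Eph list 2 of 19 (median -0.01), all with negative changes. Nefl was at 1.14 alone and -0.30 in Mix (-1.44, adjusted p = 0.0088), Nrcam at 1.02 alone and -0.21 in Mix (-1.23, adjusted p = 0.0096) and Nefm at 0.66 alone and -0.44 in Mix (-1.10, adjusted p = 0.026). Epha2 was at 1.57 alone and 0.56 in Mix (-1.01, adjusted p = 0.026) and Epha1 at 0.87 alone and -0.77 in Mix (-1.64, adjusted p = 0.0088). B2m, the invariant subunit of MHC class I molecules, and the water channel gene Aqp3 went the other way: B2m was at -0.91 alone and 0.30 in Mix (1.21, adjusted p = 0.026), and Aqp3 at 1.29 alone and 2.46 in Mix (1.17, adjusted p = 0.042). Of these 18 genes, 8 passed in every setting run: Fst, Smad7, Nefl, Nrcam, Epha1, Dusp6, Etv4 and Ppp4r4. The other 10 lost the call in 1 to 12 of 22 settings (adjusted p up to 0.13). Mixed cells were sorted; the sources used here do not say so of cells grown alone.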

How the results depend on the processing

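With only the 6 Separate arrays 1170 genes passed (554 higher and 616 lower), of which 1144 were among the 1981. Leaving out arrays moved the count between 1083 (without Bmpr1a-/- replicate 2) and 1967, higher genes from 529 to 871 and lower genes from 520 to 1158. With an array left out, list genes past the test numbered 155 to 235, the lowest without Bmpr1a-/- replicate 2 or WT replicate 2. On chromosome 11 the number lower ranged from 167 to 309 with an array left out, and was 195 with only the 6 arrays. With an array left out the Mix count ranged from 1851 (without Bmpr1a-/- Mix replicate 2) to 3122, and with array weights it was 4212. The count of differences between cultures was 387 with the replicate block, 209 with array weights and 25 to 132 with an array left out. No call reversed. Of 145 named genes that passed, 106 passed in every setting run and 39 lost their calls in at least 1, most often without WT replicate 2 (33) or Bmpr1a-/- replicate 2 (30).

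With the replicate block, which pairs same-numbered arrays, 2854 genes passed alone, 1980 of them among the 1981, and 3814 in Mix, and no named gene that had passed lost its call.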

Other observations

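Of 35 epithelial junction genes 4 rose (11.4%) and 2 fell (5.71%). The count lower was 5 with the replicate block, 4 without WT replicate 3, and 1 without Bmpr1a-/- replicate 2, WT replicate 1 or WT replicate 2 or with only the 6 arrays. The splicing regulator gene Esrp2 (signal 167.1 ± 14.2 in Bmpr1a-/- and 89.3 ± 21.6 in WT cells, SD, n = 3 each, difference 0.93, adjusted p = 0.0013) and Grhl2, an epithelial transcription factor gene (0.81, adjusted p = 0.0010), were among the rises. Of 30 Hippo pathway genes and YAP targets none rose and 2 fell (6.67%), both on chromosome 11. The count lower was 0 without Bmpr1a-/- replicate 3 or WT replicate 2, and the count higher was 2 without Bmpr1a-/- replicate 1 and 3 with the replicate block. In the MHC and interferon list, 2 of 35 rose (5.71%) and 1 fell (2.86%). The count higher was 4 with the replicate block, and 1 with only the 6 arrays or without Bmpr1a-/- replicate 1 or 3 or any 1 of the WT replicates. The count lower was 6 with the replicate block, 4 without Bmpr1a-/- replicate 1 and 3 without WT replicate 3. The gene that fell was B2m, with a signal of 303.7, 225.2 and 335.6 in Bmpr1a-/- arrays, against 565.3, 591.1 and 452.8 in WT arrays (-0.91, SE 0.15, adjusted p = 0.0027). Of 26 genes of cell handling and immediate early response 3 rose (11.5%) and none fell (median 0.17), with 1 higher without Bmpr1a-/- replicate 3 and 5 with the replicate block.

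The array held Nanog in 1 probe set that also names the pseudogene Nanogpd, so it was not among the genes tested. Its signal was 742.3, 609.6 and 554.8 in Bmpr1a-/- arrays and 458.5, 421.1 and 328.8 in WT arrays, a log2 difference of 0.66.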
